A study of Mus musculus with 8 samples.

Results

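The comparison of CD11b+Gr-1+ myeloid cells from colon tumors of mice labelled null for Hdc with those from wild-type mice was described gene by gene. Hdc encodes histidine decarboxylase. The genes were those with a probe set annotated to 1 gene, read from the probe set with the highest mean, that lay at or above log2 5 on at least 2 of the 4 tumor arrays. There were 7936 such genes, of 8173 that reached log2 5 on at least 2 of all 8 arrays and of 18193 with a probe set of 1 gene. Every difference below is the pool labelled HDC-KO minus the wild-type pool on the log2 scale, and log2 5 was used as the level under which a signal was treated as background.

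The mice were described as of the C57BL/6J strain. According to the sample labels the wild-type mice carried an HDC-EGFP reporter transgene and the others were HDC-EGFP/HDC-KO, so that the transgene was shared by every group, whereas the text on the design names the tumor mice only as WT and HDC-KO. Tumors were induced with a single dose of azoxymethane, a carcinogen of the colon, and 10 days of dextran sodium sulfate, an agent that damages the gut epithelium, and were collected 22 to 24 weeks later at 7 months of age. CD11b+Gr-1+ cells were sorted from 10 to 12 tumors of 5 mice per group and pooled, with no EGFP gate named. Bone marrow cells were HDC-expressing CD11b+Gr-1+ cells of 3 mice per genotype aged 3 to 4 months. Their values are set beside the tumor values, and their arrays also entered the choice of probe sets and the model fit. RNA of each group was measured on 2 technical arrays, from 15 ug of total RNA. Each tumor group is therefore 1 pool. An adjusted p sets the gap between 2 pools beside the technical spread of arrays, estimated over all 4 pools, marrow included. It says nothing of the spread from mouse to mouse.

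Histidine decarboxylase is the enzyme that makes histamine, and in the marrow it is active in immature myeloid cells as well as in basophils and mast cells. CD11b and Gr-1 are surface proteins carried together by neutrophils, their precursors and a part of the monocytes, and in tumors cells with both are often called myeloid-derived suppressor cells. Neutrophils make their primary, or azurophil, granule proteins first, in dividing precursors, and their secondary and tertiary granule proteins later, after which they leave the cell cycle and carry mature receptors.

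Hdc, the gene named by the label, was high in both tumor pools. Its values were 13.25 and 13.23 on the wild-type arrays and 13.02 and 13.03 on the arrays labelled HDC-KO. The pools did not overlap but lay within 1.16-fold, a difference of -0.21 with a standard error (SE) of 0.05 (limma with Benjamini-Hochberg adjustment, adjusted p = 0.0125, and between 0.000251 and 0.0907 under the alternatives tried). The second Hdc probe set differed by -0.20. Between the marrow pools the same probe sets were 10.2-fold and 24.3-fold lower in HDC-KO. The target gene thus went against the label of the tumor pool, and each direction below rests on that label alone. Of the 11 histamine genes listed, 3 were tested. Maoa, a monoamine oxidase that acts late in one route of histamine breakdown, read 7.47 and 7.32 in the wild-type pool and 10.19 and 10.30 in the other, 7.19-fold higher (limma, adjusted p = 9.97e-06). Hnmt, which methylates histamine, read 10.03 and 9.75 against 9.02 and 9.06, a difference of -0.84 that did not reach 2-fold. The histamine receptor genes Hrh1, Hrh3 and Hrh4 lay under log2 5 on every array.

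The sort markers differed by less than 2-fold. Itgam, which encodes CD11b, read 11.90 and 11.95 in the wild-type pool and 11.21 and 11.30 under the HDC-KO label, and Itgb2, its integrin partner, read 13.51 and 13.57 against 13.17 and 13.19. Summed on the linear scale, the 3 myeloid markers measured, these and Csf3r, came to 20188 to 20950 on the wild-type arrays and to 20047 to 20746 on the others. The like sums hold opposite differences, since Itgam and Itgb2 were lower while Csf3r was higher, at 12.19 and 12.24 against 13.05 and 13.12. Ly6g and Ly6c2, which encode the antigens read by Gr-1 antibodies, were not analysed here.

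Markers of other cells that the gate or the pool could hold stood higher or lower in one pool. The 10 epithelial markers summed to 3424 to 3605 in the wild-type pool and 15844 to 16326 in the pool labelled HDC-KO, with 8 and 9 of them at or above log2 5, against 68.6 to 82.0 in the marrow pools. The 4 goblet cell markers summed to 612 to 622 and 6975 to 7553, and the 6 macrophage markers to 8684 to 8993 and 19026 to 19702. Of the macrophage markers 3 also lay at or above log2 5 in each marrow pool. Of 3 T and NK cell markers measured, none lay at or above log2 5 in the wild-type pool and 2 did in the other, with sums of 20.3 to 23.6 and 113 to 157. The sum of the 5 mast cell and basophil markers went from 365 to 374 down to 60.5 to 81.0 through Mcpt1, the 1 of them at or above log2 5 in the wild-type pool. Of the others, Kit read 3.87 and 3.86 against 5.40 and 4.53, and Mcpt8 3.23 and 3.10 against 4.14 and 3.93. The 4 fibroblast and 4 endothelial markers lay under log2 5 in both pools. What part such cells had in the differences below was not tested, and fewer cells of a type and less RNA per cell cannot be told apart in pooled RNA.

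Between the tumor pools 2075 of the 7936 genes were called, 26.1%, with 1259 higher (15.9%) and 816 lower (10.3%) in the pool labelled HDC-KO. A gene was called at an adjusted p under 0.05 in limma with Benjamini-Hochberg adjustment over all 8173 genes and a difference of at least 2-fold. Over all genes tested 26.0% were called, 15.5% higher and 10.5% lower. The median difference was 0.05 and the median SE 0.08. The size of a difference and not the p decided most calls, since 5824 genes had an adjusted p under 0.05 at any size and the arrays of the pools did not overlap for 6933 genes (87.4%). With pool means under log2 5 raised to it, 361 genes were at least 4-fold higher and 248 at least 4-fold lower, and 29 and 18 reached 16-fold. Both pools were at or above log2 5 for 747 of the genes called higher and 617 of those called lower. The other 512 and 199 had 1 pool under it, and for these a fold is given below as a lower bound. Such genes entered the 7936 mainly through their higher pool, so that their direction was largely fixed by that rule.

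**Figure D1:**
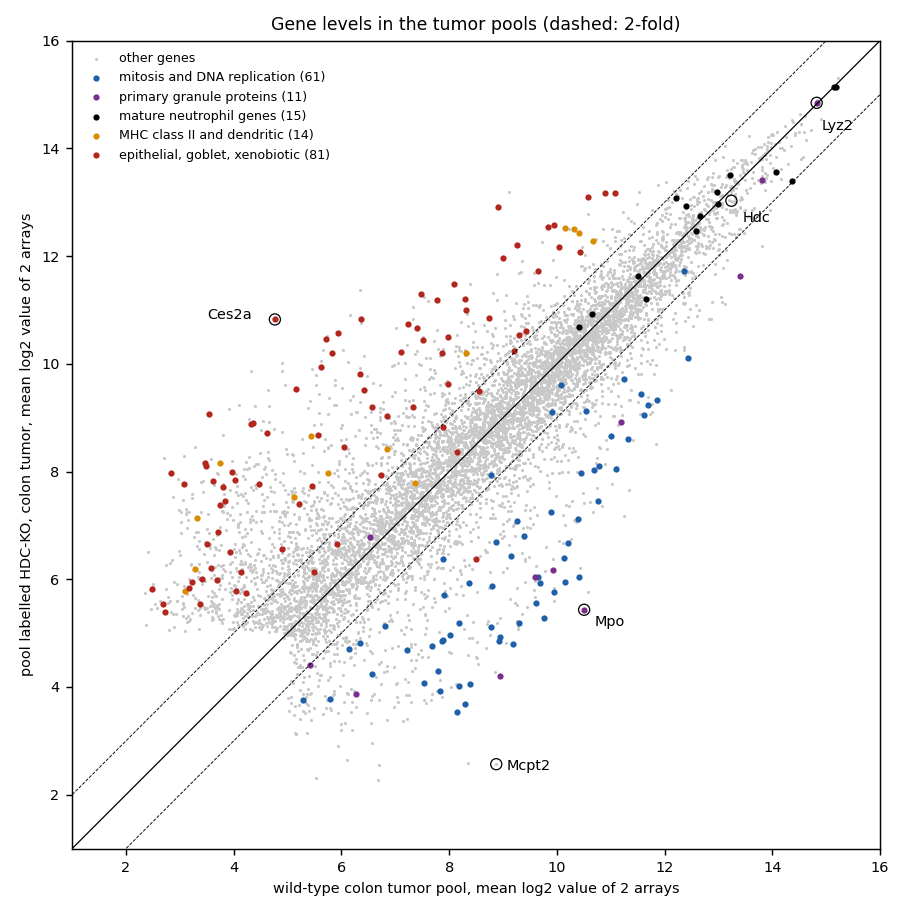
Mean log2 value of each of the 7936 genes in the tumor pools, wild type on the horizontal axis and labelled HDC-KO on the vertical axis, 2 technical arrays each; the solid line marks equal values, the dashed lines 2-fold, and circled genes are named. Mature neutrophil genes sit near the line of equal values at the top right, cell cycle genes and most primary granule genes below it, and epithelial and MHC class II genes above it.

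Primary granule genes were lower in the pool labelled HDC-KO. Of 13 listed, 11 were measured and tested, and 8 were called lower and none higher, with a median of -2.27 beside 0.05 over the 7936 genes. The list also holds genes whose products are not azurophil granule proteins, such as Ms4a3 and Serpinb1a below. For 3 of the 8 the pool labelled HDC-KO lay under log2 5. Mpo, the myeloperoxidase of azurophil granules, read 10.52 and 10.49 in the wild-type pool and 5.51 and 5.36 in the other. Ctsg, the granule protease cathepsin G, read 8.94 on both wild-type arrays and 4.42 and 3.98 on the others, which was at least 15.3-fold lower. Elane, neutrophil elastase, read 6.37 and 6.18 against 4.08 and 3.66, at least 2.43-fold lower, and Prtn3, proteinase 3, read 11.18 and 11.19 against 8.84 and 8.99, 4.82-fold lower (limma, adjusted p = 1.52e-06). None of these arrays overlapped between pools, which was also so for 87.4% of the 7936 genes. The proteases were thus unequal, with Prtn3 still far above background where Ctsg and Elane were not.

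Ms4a3, a membrane protein of granulocyte and monocyte precursors, read 9.56 and 9.64 in the wild-type pool and 6.18 and 5.92 in the other, 11.7-fold lower. Serpinb1a, which inhibits the granule proteases, read 13.39 and 13.40 against 11.67 and 11.61, 3.38-fold lower. Cst7, a cystatin, read 5.43 and 5.40 against 4.23 and 4.57, near the threshold at -1.02. It was not called with values raised to log2 5, at -0.42, nor when the first HDC-KO tumor array was left out, at -0.84. The 3 that were not called were Hp, haptoglobin, at -0.40, Nkg7 at 0.26, and Lyz2, the lysozyme of granulocytes and macrophages, which read 14.77 and 14.88 against 14.82 and 14.87.

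Proteins of the later granules were lower in part. All 21 listed genes were tested and 9 were called lower, none higher, with a median of -0.94 and a range from -4.08 to -0.28, and no pool mean lay under log2 5. Itgb2l, an integrin beta chain of maturing granulocytes, read 11.28 and 11.40 in the wild-type pool and 7.64 and 7.66 in the other, 12.9-fold lower (limma, adjusted p = 3.64e-07). Fcnb, a lectin of the granules, read 11.29 and 11.20 against 7.40 and 6.94, and Orm1, an acute phase protein stored in granulocytes, read 11.83 and 11.84 against 8.67 and 8.36. The abundant granule proteins moved less. Camp, the cathelicidin, read 14.89 and 14.92 against 14.53 and 14.55, Ltf, lactoferrin, differed by -0.73, and Mmp8 and Mmp9, the granule collagenase and gelatinase, by -0.81 and -0.94, all short of 2-fold. These 4 were chosen after their values were seen. Ncf1, a subunit of the oxidase that makes superoxide, was at -0.98 and passed 2-fold under median centring (-1.04), with its probe sets averaged (-1.42) and when the first HDC-KO tumor array was left out (-1.04).

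Genes of mature neutrophils missed the 2-fold threshold. Of 20 listed, 15 were measured and tested and none was called in limma, 8 had an unadjusted p under 0.05, the median was 0.08 and the range ran from -0.96 to 0.87. S100a8 and S100a9, the calprotectin subunits, read 15.17 and 15.18, and 15.12 and 15.16, in the wild-type pool and 15.14 and 15.13, and 15.15 on both arrays, in the other. Cxcr2, the receptor for neutrophil chemokines, read 11.52 and 11.50 against 11.62 and 11.64, a difference of 0.12 with an SE of 0.05. Csf3r, the receptor for the granulocyte growth factor G-CSF, read 12.19 and 12.24 against 13.05 and 13.12, the highest difference of the list at 0.87. Wfdc21, a secreted protein of neutrophils, was the lowest at -0.96 and passed 2-fold under median centring, at -1.02.

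Of 11 granulocyte transcription factors tested, 2 were called lower and 1 higher, 27.3% beside 26.1% of the 7936 genes. Gfi1, a repressor needed for granulocyte formation, read 9.89 and 9.96 in the wild-type pool and 6.23 and 6.10 in the other. Myb, a factor of proliferating progenitors, read 10.49 and 10.50 against 7.22 and 7.61, 8.45-fold lower (limma, adjusted p = 4.52e-06). Cebpa, which starts granulocyte differentiation, read 4.97 and 5.19 against 6.79 and 6.96, 3.48-fold higher. Both Gfi1 and Myb were also high in the marrow pools, at 10.7 to 11.6.

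DNA replication genes were lower in the pool labelled HDC-KO. Of 32 listed, 31 were measured and 27 tested, and 24 of these were called lower and none higher, with a median of -2.21. For 9 of them the pool labelled HDC-KO lay under log2 5. The minichromosome maintenance genes, whose products form the helicase that opens replication origins, moved together. Mcm5 read 11.53 and 11.57 in the wild-type pool and 9.49 and 9.37 in the other, 4.35-fold lower. Mcm6 read 10.02 and 9.78 against 7.49 and 7.01, 6.29-fold lower, and Mcm2 read 7.72 and 8.07 against 5.00 and 4.73, at least 7.43-fold lower. The ribonucleotide reductase subunits, which make deoxynucleotides, were lower as well, Rrm2 at 11.86 and 11.85 against 9.35 and 9.30 and Rrm1 at 9.37 and 9.43 against 6.63 and 6.99. Uhrf1, which carries DNA methylation through replication, read 9.77 and 9.55 against 5.73 and 6.34, 12.3-fold lower (limma, adjusted p = 1.32e-05). The 3 tested genes that missed 2-fold were Pcna, the polymerase clamp, at -0.63, Gins4 at -0.85 and Cdt1 at -0.81, named after their values were seen. The other probe set of Cdt1 differed by -1.20.

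Mitosis genes were lower as well. Of 35 listed, 34 were measured and tested, and 33 were called lower, each at least 4-fold also with means raised to log2 5, with a median of -3.59. For 11 the pool labelled HDC-KO lay under log2 5. Kif23, a kinesin of cell division, was not called, at -0.46, and its other probe set differed by -1.12, a gene chosen after its value was seen. Plk1, a kinase that runs mitotic entry and exit, read 8.41 and 8.18 in the wild-type pool and 3.44 and 3.93 in the other, at least 9.82-fold lower. Kif11, the motor that separates spindle poles, read 9.96 and 9.94 against 5.86 and 5.66, 18.3-fold lower. Spc25, a part of the kinetochore complex that binds microtubules, read 10.21 and 10.09 against 5.84 and 6.06, 18.4-fold lower (limma, adjusted p = 6e-07). Genes with the highest values kept a clear signal in both pools. Mki67, the proliferation antigen, read 12.42 and 12.44 against 10.01 and 10.19, 5.02-fold lower, and Top2a, the topoisomerase of dividing cells, was 5.92-fold lower. In the wild-type tumor pool the median level of the mitosis list was 9.85, beside 10.2 and 10.0 in the wild-type and HDC-KO marrow pools and 5.94 in the pool labelled HDC-KO.

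Promoters of mitotic genes often carry CCAAT boxes, bound by the factor NF-Y, and a cell cycle homology element near the start of transcription. Both were searched in RefSeq promoters of build GRCm38.p6, running from 250 bases before to 50 bases after the start, on both strands and with the letters CCAAT and TTTGAA. Of the 34 tested genes of the mitosis list 29 had a promoter in the table. TTTGAA stood in 23 of them (79.3%), beside 20.2% of 27025 genes with a promoter and 14.7% of the 6519 genes compared here that had one. CCAAT stood in 23 (79.3%), beside 41.1% and 42.8%. The E2F letters GGCGGGAA stood in 5 of 23 DNA replication promoters (21.7%), beside 2.52% of all and 5.05% of the genes compared here. These matches are descriptions of the letters and not of binding. The promoters of Cenpf, a kinetochore protein at 9.73 and 9.77 against 4.86 and 5.72, and of Spc25 are printed because they were 2 of the 3 mitosis genes with the largest differences once means were raised to log2 5, among those with a promoter in the table. Genes on a single chromosome were left out of this choice. The matches are in capitals. In the third, Nuf2, neither motif was found, from which nothing follows about the factors. The Cenpf promoter lies at chr1:189688037-189688336, minus strand, with CCAAT starting at -132 and -71 and TTTGAA at 3. That of Spc25 lies at chr2:69206164-69206463, minus strand, with CCAAT starting at -55 and -23 and TTTGAA at 25. Positions count from the start of transcription.
Cenpf: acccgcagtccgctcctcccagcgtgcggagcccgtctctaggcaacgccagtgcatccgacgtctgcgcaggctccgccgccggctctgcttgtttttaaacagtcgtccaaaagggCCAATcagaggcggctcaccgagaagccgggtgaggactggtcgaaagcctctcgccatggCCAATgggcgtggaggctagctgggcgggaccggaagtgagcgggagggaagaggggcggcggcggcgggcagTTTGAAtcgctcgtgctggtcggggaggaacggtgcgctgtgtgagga
Spc25: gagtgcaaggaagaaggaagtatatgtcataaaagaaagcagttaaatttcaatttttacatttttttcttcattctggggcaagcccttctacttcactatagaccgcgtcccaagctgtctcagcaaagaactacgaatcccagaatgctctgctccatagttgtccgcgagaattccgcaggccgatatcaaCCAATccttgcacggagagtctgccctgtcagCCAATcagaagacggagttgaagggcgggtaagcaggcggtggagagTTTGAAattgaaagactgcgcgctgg

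**Figure D2:**
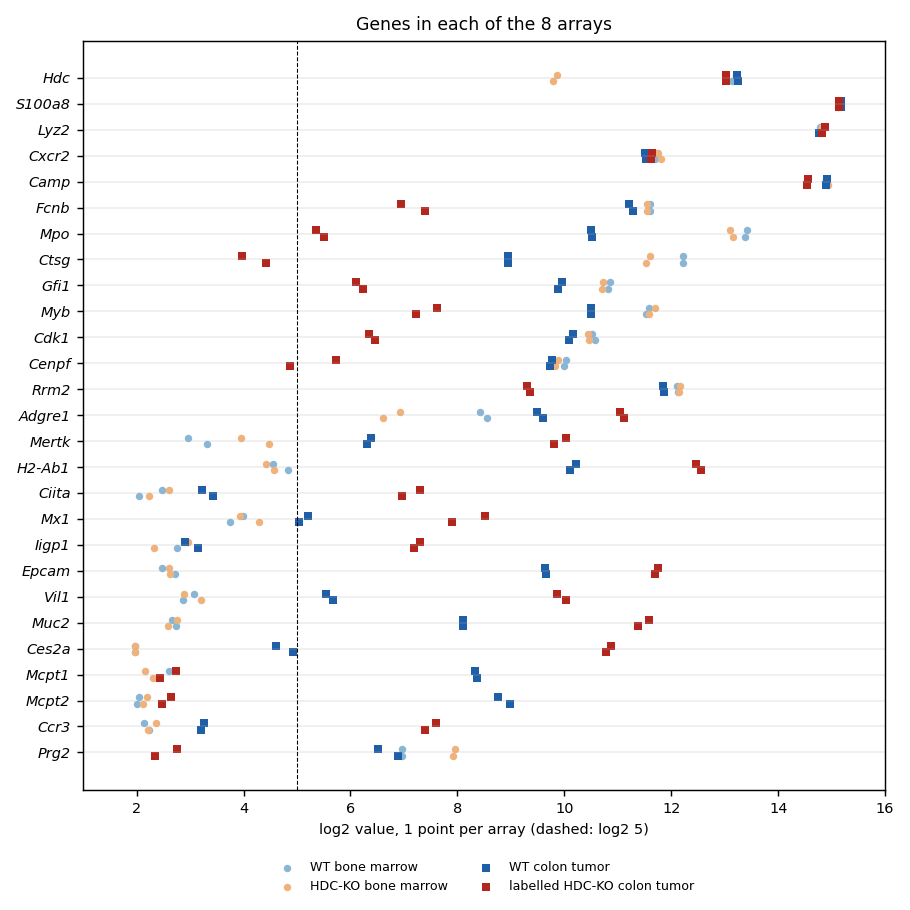
Log2 value of 27 genes on each of the 8 arrays, 1 point per array, with circles for bone marrow and squares for colon tumor and the dashed line at log2 5. S100a8, Lyz2 and Cxcr2 sit together in all pools, the cell cycle genes and Mpo and Ctsg are lowest in the tumor pool labelled HDC-KO, and Hdc is low in the HDC-KO marrow pool and high in the tumor pool of that label.

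Macrophage and monocyte genes were higher in the pool labelled HDC-KO. Of 30 intestinal macrophage genes listed, 28 were measured and 20 tested, and 10 were called higher and 1 lower, with a median of 1.00. No pool mean of those tested lay under log2 5. Mrc1, the mannose receptor, read 9.38 and 9.41 in the wild-type pool and 11.03 and 11.18 in the other, 3.28-fold higher. Fcgr1, a high-affinity antibody receptor, read 8.77 and 8.54 against 10.01 and 10.21, and Maf, a macrophage transcription factor, read 10.44 and 10.47 against 11.85 and 11.77. C1qa, a chain of complement C1q, read 10.70 and 10.71 against 11.74 and 11.79, 2.09-fold higher (limma, adjusted p = 0.000418). Cx3cr1, the fractalkine receptor, was called at 1.81 but not with its probe sets averaged, at 0.99. Il10ra, a chain of the interleukin 10 receptor, was called at 1.26 but not after such averaging, at 0.44. Lyve1, a hyaluronan receptor of some tissue macrophages and of lymphatic vessels, read 7.97 and 7.96 against 6.00 and 5.38, 4.85-fold lower. Mertk, which clears dying cells, read 6.31 and 6.38 against 9.81 and 10.03.

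All 13 monocyte genes measured were tested and 8 were called higher, none lower, with a median of 1.09. Treml4, a receptor of myeloid cells, read 9.62 and 9.54 in the wild-type pool and 11.44 and 11.49 in the other, 3.69-fold higher (limma, adjusted p = 1.94e-06). Irf8, the factor that steers progenitors toward monocytes, read 9.20 and 9.29 against 11.13 and 11.12, 3.68-fold higher. Ccr2, the receptor by which monocytes leave the marrow, read 11.15 on both arrays against 12.51 and 12.43. Of 17 lysosome genes tested 2 were called, 11.8% beside 26.1% of the 7936 genes. They were Lipa, the acid lipase, 3.00-fold higher and Ctsa, a protective carboxypeptidase, at 1.06. Ctsa missed 2-fold under median centring and with its probe sets averaged, at 0.54. The count rests on 1 probe set per gene, the one with the highest mean, and others of uncalled genes passed 2-fold, at 2.32, 2.16 and 1.03 for Ctsb, 2.01 and 1.13 for Npc2, 1.30 for Psap and 1.23 for Ctsz, all proteins of the lysosome. Of 15 genes of lipid handling tested 6 were called higher (40%), and for 4 of the 15 1 pool lay under log2 5. Pparg, a lipid-sensing nuclear receptor, read 4.15 and 4.24 against 7.88 and 8.21, at least 8.27-fold higher, and Scd1, which desaturates fatty acids, read 4.24 and 4.55 against 9.27 and 9.15, at least 18.5-fold higher. Pparg and Scd1 are also expressed by colon epithelium. The macrophage and epithelial markers rose between the same pools, and how much of these differences either accounts for was not tested.

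MHC class II genes, which present antigen to helper T cells, were higher. Of 23 listed with dendritic cell genes, 21 were measured and 14 tested, and 13 were called higher and none lower, with a median of 2.29. In 4 of the 14 the wild-type pool lay under log2 5. Ciita, the activator that switches these genes on, read 3.43 and 3.23 in the wild-type pool and 6.96 and 7.30 in the other, at least 4.39-fold higher. H2-Aa, H2-Eb1 and Cd74, the class II chains and the invariant chain that guides them, read 10.67 and 10.68, 10.32 and 10.31, and 10.31 and 10.49 in the wild-type pool. In the pool labelled HDC-KO they read 12.29 and 12.27, 12.47 and 12.53, and 12.46 and 12.40, or 3.05-fold, 4.55-fold and 4.08-fold higher. Batf3, a factor of cross-presenting dendritic cells, read 3.87 and 3.61 against 8.18 and 8.14, at least 8.96-fold higher (limma, adjusted p = 1.27e-06), and Fscn1, the actin bundler of mature dendritic cells, read 5.15 and 5.73 against 8.40 and 8.93, 9.34-fold higher. The dendritic markers Flt3, Zbtb46, Itgae and Ccr7 had pool means at or above log2 5 in 2 cases, both in the pool labelled HDC-KO, with sums of 39.6 to 42.4 against 112 to 119, and none of them reached log2 5 on 2 arrays.

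Of 16 genes of MHC class I and peptide loading tested, 8 were called higher and none lower, with a median of 0.90. The class I chains were not called, H2-K1 at 12.70 and 12.71 against 13.16 and 13.08, H2-D1 at 0.38 and B2m at 0.29, named after their values were seen. Other probe sets gave larger differences, 0.99 to 1.26 over 3 for H2-K1, 0.41 to 0.92 over 7 for H2-D1 and 0.49 for B2m. Nlrc5, the activator of class I genes, read 6.03 and 6.20 in the wild-type pool and 8.37 and 8.46 in the other, 4.92-fold higher. Psmb10, an immunoproteasome subunit, read 8.75 and 8.65 against 10.56 and 10.66, 3.77-fold higher, and Pdia3, a chaperone of the loading complex, read 7.66 and 7.29 against 9.99 and 9.96, 5.66-fold higher (limma, adjusted p = 8.14e-06). Tap1, a peptide transporter, was 2.06-fold higher.

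Interferon-induced genes were higher. Of 27 type I interferon-induced genes listed, 24 were measured and 20 tested, and 13 were called higher and none lower, with a median of 1.45. No pool mean of the 20 lay under log2 5. Usp18, which damps interferon signalling, read 6.48 and 6.40 in the wild-type pool and 8.59 and 8.40 in the other, 4.16-fold higher. Irf7, which amplifies the interferon response, read 7.06 and 7.33 against 9.13 and 8.95, 3.59-fold higher, and Ifih1, a sensor of double-stranded RNA, read 9.12 and 9.28 against 10.82 and 10.86, 3.12-fold higher. Not every member moved. Irf9, a subunit of the factor that carries the signal, differed by 0.24 and Ddx58, an RNA sensor, by 0.18, both named after their values were seen. Between the marrow pools 6 of the 20 were called lower in HDC-KO and none higher, where 2.02% of all genes tested were called lower. The wild-type tumor pool, with a median level of 7.50, lay below all 3 other pools. Their medians were 9.30 in the pool labelled HDC-KO and 8.55 and 7.66 in the wild-type and HDC-KO marrow pools.

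The interferon-stimulated response element was searched on both strands of the same promoters as GAAA, 2 bases of any kind and GAAA again. It stood in 8 of the 14 list promoters in the table (57.1%), beside 3.99% of all genes and 3.96% of the genes compared here. By call, 4 of the 8 called genes with a promoter held it, and so did 4 of the other 6. The promoters of Ifit3, at 6.35 and 6.34 against 9.24 and 9.34, and of Ifit1, at 7.24 and 7.25 against 9.38 and 9.25, are printed because both genes, which encode RNA-binding antiviral proteins, were among the 3 of the list with the largest differences and a promoter in the table. Genes on the same chromosome as for the mitosis promoters were left out of this choice. The matches are in capitals and read on the opposite strand. The third, Oasl2, held no match in this window, from which nothing follows about the factor. The Ifit3 promoter lies at chr19:34583279-34583578, plus strand, with matches starting at -156 and -122, and the Ifit1 promoter at chr19:34640639-34640938, plus strand, with matches starting at -104 and -85.
Ifit3: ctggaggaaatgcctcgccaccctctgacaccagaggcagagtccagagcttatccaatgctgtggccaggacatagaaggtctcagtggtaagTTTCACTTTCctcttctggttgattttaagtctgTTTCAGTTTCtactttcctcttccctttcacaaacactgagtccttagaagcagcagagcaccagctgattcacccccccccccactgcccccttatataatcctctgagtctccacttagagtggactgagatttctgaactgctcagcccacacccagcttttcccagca
Ifit1: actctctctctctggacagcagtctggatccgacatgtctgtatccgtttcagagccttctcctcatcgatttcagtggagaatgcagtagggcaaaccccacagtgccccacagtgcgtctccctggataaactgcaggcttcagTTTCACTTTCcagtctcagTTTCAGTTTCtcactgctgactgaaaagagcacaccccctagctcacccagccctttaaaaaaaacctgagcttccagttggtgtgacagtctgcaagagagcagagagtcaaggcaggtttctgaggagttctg

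GTPases induced mainly by interferon gamma, which attack the vacuoles of microbes inside cells, were higher as well. Of 18 listed, 14 were measured and 12 tested, and 9 were called higher and none lower, with a median of 1.78. For 3 of the 12, 1 pool lay under log2 5. Iigp1 read 3.14 and 2.91 in the wild-type pool and 7.18 and 7.30 in the other, at least 4.73-fold higher. Gbp8 read 5.94 and 5.84 against 9.56 and 9.67, 13.2-fold higher (limma, adjusted p = 7.68e-07), and Ifi47 read 8.67 and 8.86 against 10.89 and 10.86, 4.32-fold higher. Cxcl9, a chemokine of the list induced by the same cytokine, read 4.00 and 4.20 against 6.69 and 7.07, at least 3.69-fold higher. Ifngr1 and Ifngr2, the receptor chains of interferon gamma, were 2.12-fold and 2.02-fold higher. The guanylate-binding and immunity-related GTPase families hold close copies, and whether each probe set reads 1 member was not tested.

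Genes of the colon epithelium were higher in the pool labelled HDC-KO. Of 29 junction and keratin genes listed, all were measured and 24 tested, and 22 were called higher and 1 lower, with a median of 2.55, or 2.10 with means raised to log2 5. In 10 of the 24 a pool lay under log2 5. Epcam, an adhesion protein of epithelial cells, read 9.65 and 9.64 in the wild-type pool and 11.70 and 11.75 in the other, 4.23-fold higher. Krt8, a keratin of simple epithelium, read 10.02 and 10.07 against 12.18 and 12.17, 4.37-fold higher. Krt20, a keratin of mature colon cells, read 8.11 and 8.48 against 11.11 and 11.30, 7.55-fold higher (limma, adjusted p = 5.89e-06). Cldn15, a channel-forming claudin, was the 1 gene lower, at 8.69 and 8.32 against 6.58 and 6.19, and it read 9.86 and 9.11 in the wild-type and HDC-KO marrow pools, where Epcam read 2.59 and 2.61. Epithelial transcripts were thus measured in both tumor pools, at unequal levels.

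Of 19 enterocyte genes tested, from 30 listed and 29 measured, 18 were called higher and none lower, with a median of 2.61. In 7 the wild-type pool lay under log2 5, so that they entered the comparison mainly through the other pool. Guca2a, the hormone guanylin, read 9.16 and 9.36 in the wild-type pool and 12.21 and 12.22 in the other, 7.76-fold higher. Slc6a14, an amino acid carrier, read 7.55 and 6.65 against 10.10 and 10.33, 8.67-fold higher. Cdhr2, a protocadherin of the brush border, read 4.47 and 4.25 against 8.66 and 9.13, at least 14.9-fold higher (limma, adjusted p = 2.98e-06). Slc26a3, the chloride exchanger of surface colon cells, was 2.02-fold higher, at 9.28 and 9.15 against 10.20 and 10.26.

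Goblet cell and mucus genes, whose products coat the colon lining, were higher too. Of 29 listed, 27 were measured and 16 tested, and 15 were called higher, none lower, with a median of 3.14. For 3 of the 16, 1 pool lay under log2 5, so that they entered the comparison mainly through the other. Muc2, the gel-forming mucin of the colon, read 8.10 on both wild-type arrays and 11.38 and 11.58 on the others, 10.4-fold higher. Tff3, a trefoil peptide released with mucus, read 7.61 and 7.33 against 11.26 and 11.34, 14.2-fold higher (limma, adjusted p = 1.41e-06). Gcnt3, an enzyme that branches mucin sugars, read 4.40 and 4.24 against 8.97 and 8.81, at least 14.8-fold higher. Pigr, which carries immunoglobulin A across epithelium, read 9.02 and 8.98 against 12.01 and 11.93. Reg4, a lectin of secretory cells, was the 1 not called, at 0.66.

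Genes of drug and lipid metabolism had the highest median of the 40 lists, 3.54. Of 36 listed, 33 were measured and 22 tested, and 20 were called higher and none lower, with the wild-type pool under log2 5 in 12. Those 12 entered the comparison mainly through the other pool. Genes measured but too low to be tested went both ways. Ces2g read 3.79 and 3.70 against 3.21 and 3.15, and Cyp2d26 read 2.16 and 2.11 against 5.16 and 4.77. Cyp2c55, a cytochrome of the colon lining, read 8.87 and 8.97 in the wild-type pool and 12.93 and 12.91 in the other, 16.0-fold higher (limma, adjusted p = 1.58e-05). Cyp2c65, a relative of it, read 3.48 and 3.61 against 9.19 and 8.97, at least 16.9-fold higher. Ces2a, a carboxylesterase, read 4.92 and 4.61 against 10.78 and 10.87 and had the largest bound of all genes called higher. Abcc3, an efflux pump, read 6.23 and 6.48 against 9.75 and 9.86, 10.9-fold higher. The carboxylesterase and cytochrome families hold close copies, and cross-reading between their probe sets was not tested.

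Of 30 intestinal transcription factor and stem cell genes listed, 9 were tested and 6 called higher, and for 5 of the 9 1 pool lay under log2 5. Hnf4a, a factor of enterocytes, read 4.70 and 4.41 in the wild-type pool and 7.40 and 8.71 in the other, at least 8.30-fold higher, with an SE of 0.39 on the fitted log2 difference. Vdr, the vitamin D receptor, read 4.18 and 4.63 against 8.02 and 7.37, at least 6.49-fold higher. Lgr5, a marker of intestinal stem cells, lay under log2 5 on every array, at 2.25 to 2.91. Olfm4, which marks stem cells of the human gut and is also made by neutrophils, read 13.38 and 13.36 against 12.46 and 12.36. The letters GTTAAT, a part of HNF1 sites, stood in 1 of 17 junction promoters (5.88%) and 2 of 14 enterocyte promoters (14.3%), beside 8.24% of all and 5.25% of the genes compared here.

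**Figure D3:**
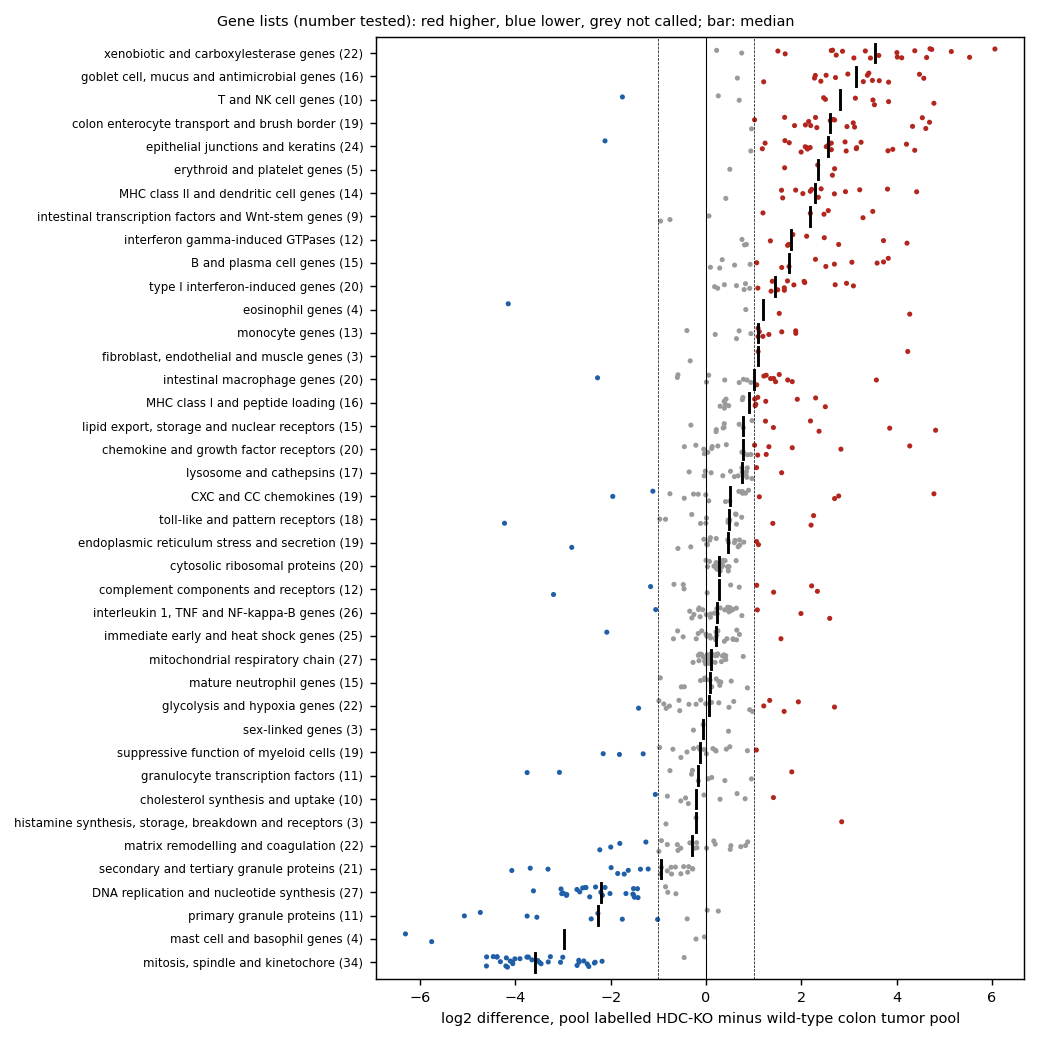
Log2 difference between the tumor pools (horizontal axis) for the tested genes of 40 gene lists, 1 point per gene, with the number tested in brackets; red genes were called higher, blue lower and grey not called, bars mark medians and dashed lines 2-fold. Mitosis, mast cell, primary granule and DNA replication genes lie at the low end, xenobiotic, goblet and enterocyte genes at the high end, and ribosomal, respiratory chain and mature neutrophil genes near 0.

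Of 29 T and NK cell genes listed, 25 were measured and 10 tested, and 7 were called higher and 1 lower. For 5 of the 10, 1 pool lay under log2 5, so that they were tested through the other alone. The other 15 measured were too low to be tested, among them Cd4, the helper T cell antigen, at 2.72 and 2.83 against 2.38 and 2.58, and Zap70, a kinase of T cell receptor signalling, at 2.76 and 3.15 against 2.92 and 2.90. Klrd1 and Ncr1, receptors of NK cells, read 2.90 and 3.14, and 2.63 and 2.85, in the wild-type pool and 6.89 and 6.81, and 6.01 and 6.54, in the other, at least 3.61-fold and 2.42-fold higher. Cd3e, a chain of the T cell receptor complex, lay at 2.67 to 3.16 on the 4 tumor arrays. Cd3d, another chain, was the 1 gene lower, at 11.99 and 12.07 against 10.26 and 10.29. Of 15 B and plasma cell genes tested 10 were called higher, and for 4 of the 15 1 pool lay under log2 5. Ms4a1, the B cell antigen CD20, read 6.76 and 6.43 against 9.62 and 9.69, 8.34-fold higher (limma, adjusted p = 5.94e-06), and Cd22, an inhibitory receptor of B cells, read 4.34 and 4.42 against 8.17 and 8.03, at least 8.57-fold higher. Jchain, which joins secreted antibodies, was high in both pools, at 12.44 and 12.50 against 13.02 and 13.10. Ighm, an antibody heavy chain gene, was not called, at 0.34, and its other probe sets went both ways, from -2.27 to 1.22. Cd79a and Pax5, also B cell genes, were too low to be tested. They read 2.45 and 2.56, and 2.70 and 2.83, in the wild-type pool and 3.25 and 3.57, and 2.44 and 2.67, in the other.

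A pair of mast cell proteases was lower in the pool labelled HDC-KO. Mcpt2 read 8.99 and 8.76 in the wild-type pool and 2.48 and 2.65 in the other, at least 14.7-fold lower (limma, adjusted p = 3.52e-07). Mcpt1, a chymase like it of mucosal mast cells, read 8.37 and 8.33 against 2.44 and 2.74, at least 10.2-fold lower. In the marrow pools both lay under log2 5, at 2.01 to 2.60. They were the 2 called, both lower, of 4 mast cell and basophil genes tested from 21 listed, and the others lay near or under background or, like Hdc, missed 2-fold. Cpa3, the mast cell carboxypeptidase, read 3.63 and 3.68 against 3.18 and 3.15, Fcer1a and Ms4a2, chains of the immunoglobulin E receptor, lay between 2.71 and 3.41 on the tumor arrays, and Kit, the stem cell factor receptor, read 3.87 and 3.86 against 5.40 and 4.53. Mcpt1 and Mcpt2 are close copies, and whether their probe sets tell them apart was not tested. Of 4 eosinophil genes tested 2 were called higher and 1 lower. Ccr3, the eotaxin receptor, read 3.21 and 3.26 against 7.40 and 7.60, Prg2, the granule major basic protein, read 6.89 and 6.51 against 2.34 and 2.75, and Siglecf, a lectin of eosinophils, differed by 0.83.

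Genes by which myeloid cells suppress T cells were often high in both tumor pools. Of 24 listed, 19 were tested, and 1 was called higher and 3 lower, 21.1% beside 26.1% of the 7936 genes, with a median of -0.13. Arg1, the arginase that depletes arginine, read 10.53 and 10.60 in the wild-type pool and 10.08 and 10.25 in the other, a difference of -0.40 with an SE of 0.16, against 2.01 and 2.03 in the marrow pools. Ptgs2, the inducible cyclooxygenase, read 13.31 and 13.29 against 13.02 and 13.06, and Cd274, the checkpoint ligand PD-L1, read 9.37 and 9.45 against 9.98 and 9.84, at 0.50. Those lower were Nt5e, an ectoenzyme that makes adenosine, at 9.47 and 9.44 against 7.52 and 7.75, Ptges2, a prostaglandin E synthase, at 7.72 and 7.75 against 5.52 and 5.63, and Slc7a2, an arginine carrier, at 5.56 and 6.29 against 4.44 and 4.77. Nt5e missed 2-fold with its probe sets averaged, at -0.74. Slc7a2 missed it with values raised to log2 5, at -0.92, and when the second wild-type array was left out, at -0.95. Tgfb1, the 1 higher, at 1.05, missed it under 5 of the alternatives tried, at 0.66 to 0.99.

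Several inflammatory cytokines were likewise high in both tumor pools. Of 26 genes of the interleukin 1, TNF and NF-kappa-B list tested, 3 were called higher and 1 lower, with a median of 0.23. Il1b read 14.31 and 14.46 in the wild-type pool and 14.46 and 14.50 in the other, and Il6 read 10.74 and 10.52 against 10.77 and 10.67, a difference of 0.09 with an SE of 0.10, both named after their values were seen. Il18, a cytokine of macrophages and of epithelium, read 8.32 and 8.36 against 10.93 on both arrays, 6.04-fold higher (limma, adjusted p = 2.75e-06), and Relb, an NF-kappa-B subunit of antigen-presenting cells, read 5.11 and 5.00 against 7.22 and 6.86, 3.97-fold higher. Il18bp, which binds and blocks interleukin 18, was lower at -1.06 but not when the first HDC-KO tumor array was left out, at -0.91.

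Of 19 chemokine genes tested 4 were called higher and 2 lower, 31.6% beside 26.1% of the 7936 genes. Ccl5, a chemokine for T cells, read 5.53 and 5.94 in the wild-type pool and 10.53 and 10.51 in the other. The monocyte chemokines Ccl2 and Ccl12 read 5.62 and 5.68, and 6.42 and 5.53, against 4.56 and 4.51, and 4.26 and 3.77, at least 1.57-fold and 1.97-fold lower. Cxcl5 was called at 1.12 and missed the threshold when the first array of either tumor pool was left out, at 0.84 and 0.88, and under quantile normalization, at 0.99. Of 18 pattern receptor genes 3 were called higher and 1 lower (22.2%), with Tlr7, a sensor of single-stranded RNA, at 6.67 and 6.52 against 8.88 and 8.72, 4.60-fold higher. Lbp, which hands lipopolysaccharide to its receptor, was the 1 lower, at 10.38 and 10.48 against 6.53 and 5.87. Of 22 matrix and coagulation genes 4 were called lower and none higher (18.2%). Among them were Mmp14, a membrane metalloprotease, at 7.46 and 7.66 against 5.21 and 5.44, and Timp1, a protease inhibitor, at 5.74 and 6.31 against 4.28 and 4.15, at least 2.04-fold lower.

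The other lists of cell types and receptors held fewer tested genes. Of 5 erythroid and platelet genes tested 4 were called higher, with a median of 2.34. Ppbp, a platelet chemokine, read 5.51 and 6.00 in the wild-type pool and 8.11 and 8.80 in the other, 6.48-fold higher (limma, adjusted p = 0.00026). Pf4, another, differed by 0.50. Alas2, the first enzyme of heme synthesis in red cells, read 2.89 and 2.99 against 5.65 and 5.53 and was not called with values raised to log2 5, at 0.59, and the globin Hba-a1 lay at 2.31 to 2.37 on the tumor arrays. Slc4a1, the anion exchanger of red cells, was 5.07-fold higher, and Car2, a carbonic anhydrase that colon cells make as well, 3.13-fold. Of 3 fibroblast, endothelial and muscle genes tested 2 were called higher, Postn, a matrix protein, at least 9.20-fold, and Fn1, fibronectin, at 1.09, which missed 2-fold with its probe sets averaged, at 0.67.

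Of 20 chemokine and growth factor receptor genes tested 7 were called higher and none lower, with a median of 0.77. That was 35% called, beside 26.1% of the 7936 genes. Ccr9, a receptor for homing to the gut, read 3.16 and 3.19 in the wild-type pool and 6.05 and 5.96 in the other, at least 2.00-fold higher. Of 12 complement genes 4 were called higher and 2 lower (50%). Cfb, factor B of the alternative pathway, read 4.66 and 5.21 against 7.35 and 7.18, at least 4.81-fold higher (limma, adjusted p = 5.12e-05), and Cd55, which protects cells from complement, was 2.24-fold lower. Of 10 genes of cholesterol synthesis and uptake 1 was called higher and 1 lower (20%), Dhcr7 and Msmo1, both enzymes of synthesis. Neither call held under every alternative, since Dhcr7 was at 0.20 with values raised to log2 5 and Msmo1 at -0.91 with its probe sets averaged.

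Ribosomal and respiratory chain genes, which every cell uses, missed the 2-fold threshold. None of 20 ribosomal protein genes and none of 27 respiratory chain genes tested was called in limma. The medians were 0.28 and 0.11, the ranges ran from 0.00 to 0.63 and from -0.27 to 0.78, and 17 and 15 had an unadjusted p under 0.05. Of 22 glycolysis and hypoxia genes 5 were called higher and 1 lower, 27.3% beside 26.1% of the 7936 genes. Car9, a carbonic anhydrase induced by low oxygen and also made by gut epithelium, read 3.37 and 3.31 in the wild-type pool and 6.07 and 6.01 in the other, at least 2.05-fold higher. Egln3, an oxygen sensor, and P4ha1, a collagen hydroxylase, were called and missed 2-fold with probe sets averaged, at 0.87 and 0.71. Of 19 genes of secretory stress 2 were called higher and 1 lower (15.8%). Asns, asparagine synthetase, read 10.28 and 10.27 against 7.30 and 7.61, 7.06-fold lower (limma, adjusted p = 2.83e-06). Ern1, a stress sensor of the endoplasmic reticulum, was 2.14-fold higher. Of 25 genes of the immediate early and heat shock response, which handling of tissue can induce, 1 was called higher and 1 lower (8%). Jun was the 1 higher, and Nr4a2, a nuclear receptor, read 7.58 and 6.82 against 4.63 and 5.60, 4.24-fold lower. The second Jun probe set differed by 0.60.

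Beyond the lists, the largest falls with both pools above background included Ncam1, a neural cell adhesion protein also found on some leukocytes, at 9.24 and 9.32 in the wild-type pool and 4.95 and 5.21 in the other, 18.4-fold lower, and Depdc1a, a cell cycle gene, at 9.48 and 9.06 against 5.17 and 5.08, 17.7-fold lower. Tmem216, a protein of the base of cilia, read 9.91 and 9.97 against 5.88 and 5.81, 17.1-fold lower (limma, adjusted p = 3.52e-07). The largest rises included Gfra2, a receptor for a neural growth factor, at 5.82 and 5.41 against 10.17 and 9.94, 21.7-fold higher, and Tmigd1, an adhesion protein of epithelium, at 6.73 and 5.98 against 10.78 and 10.73, 21.0-fold higher. Ighv14-2, an antibody heavy chain segment, read 5.05 and 5.86 against 9.85 and 9.96, 21.8-fold higher. With the wild-type pool under log2 5, Kbtbd11 read 4.93 and 4.96 against 9.68 and 9.55, at least 24.5-fold higher. Of 621 called genes with another probe set above background, all other probe sets had the same sign for 610 (98.2%) and reached 2-fold for 487 (78.4%).

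Set beside the marrow pools, the genes called lower and those called higher differed in where they were found. The 816 lower genes had median levels of 9.16 and 9.22 in the wild-type and HDC-KO marrow pools, 8.89 in the wild-type tumor pool and 6.69 under the HDC-KO label. In 789 of them (96.7%) both marrow pools lay at or above log2 5, beside 465 of the genes called higher (36.9%). The 1259 higher genes had medians of 4.18 and 4.34 in the marrow pools, 5.53 in the wild-type tumor pool and 7.66 in the other, and both marrow pools lay under log2 5 for 726 of them (57.7%), beside 17 of the lower genes (2.08%) and 236 of those not called (4.03%). Genes not called had medians of 9.02 to 9.04 in all 4 pools. The wild-type tumor value enters both the tumor difference and these levels, so that they are not independent of the calls.

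**Figure D4:**
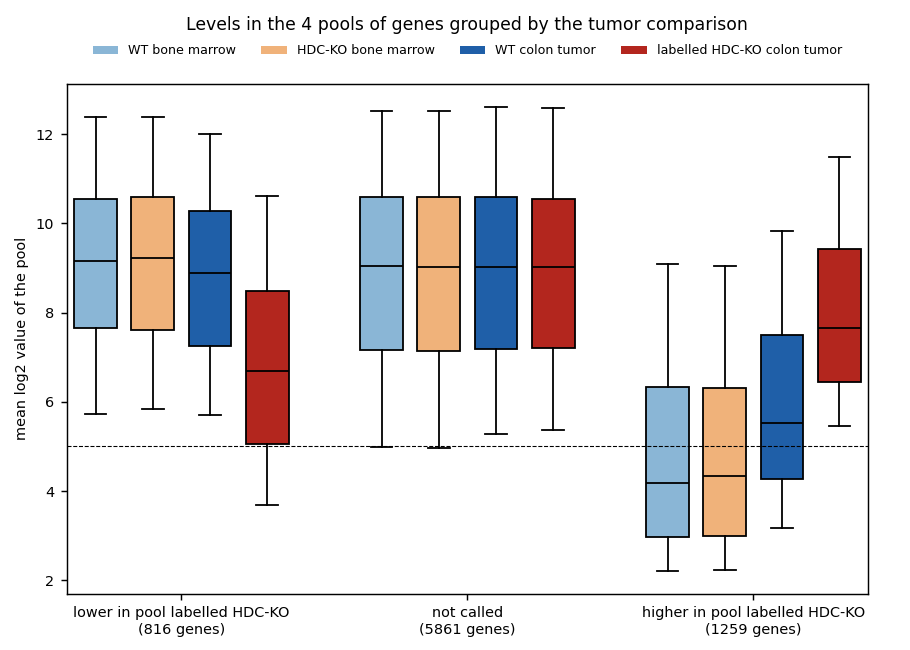
Mean log2 level in each of the 4 pools of the genes called lower, not called and called higher between the tumor pools; boxes span the quartiles with the median as a line, whiskers run from the 5th to the 95th percentile of genes, and the dashed line marks log2 5. The lower genes have medians of 8.89 to 9.22 in 3 pools and 6.69 in the tumor pool labelled HDC-KO, and the higher genes have medians of 4.18 and 4.34 in marrow.

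The genotype comparison in bone marrow, which shares no array with that in tumor, called 3.82% of all genes tested (1.8% higher and 2.02% lower) and 266 of the 7936 members. Of these, 124 were called in both tissues, 5.98% of the tumor calls and 46.6% of the marrow calls, with 58 in the same direction and 66 in opposite ones. No gene of the DNA replication or mitosis lists was called between the marrow pools, where their median differences were -0.04 and -0.14, beside -2.21 and -3.59 in tumor. The difference of effects, tumor minus marrow, was called for 28.5% of all genes tested, 16.8% higher and 11.7% lower, and for 2256 members, 1340 higher and 916 lower. Beside their label the marrow and tumor pools differed in age, in the EGFP gate and in sex-linked transcripts. Azoxymethane and dextran sodium sulfate were named for the tumor mice only. Xist read 12.35 to 12.48 on the marrow arrays and 2.86 to 3.56 on the tumor arrays, while Eif2s3y, a gene of the Y chromosome, read 11.06 and 11.12 in the wild-type tumor pool and 11.17 and 10.89 in the other and had means of 2.49 and 2.37 in marrow. Tissue, treatment, age, gate and sex cannot be told apart in this difference. Between the tumor pools the 3 tested sex-linked genes differed by -0.27 to 0.47. Some probe sets of H2-D1, an MHC class I gene, differed by 8.34, 8.16 and 7.37 between the marrow pools, higher in HDC-KO. In the tumor pools the same probe sets had means of 12.56 to 13.45. Others of the gene differed by -0.53, -0.52, -0.49 and -0.37 between the marrow pools. Whether the mice of the marrow pools differed in background despite the stated strain was not tested.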

How the data were processed

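CD11b+Gr-1+ cells were sorted, and their RNA was measured on 8 Affymetrix arrays, 2 technical arrays for each of 4 pools. The deposited values were used, which are log2 expression values per probe set that the authors normalised with GCRMA, per the submitters' processing notes. Depth does not apply to arrays, and their number limits the precision. The array scans were not used here. The platform annotation gave 1 gene for 34958 of 45101 probe sets, several for 932 and none for 9211, and 13 control probe sets were left out. Of genes with several probe sets the one with the highest mean over 8 arrays was used, and genes at or above log2 5 on at least 2 arrays were tested, 8173 in all. A linear model with 1 mean per pool was fitted across genes with limma 3.58.1 in R 4.3.3 (4 residual degrees of freedom), with Benjamini-Hochberg adjustment for each of 3 contrasts: tumor, marrow and their difference. Calls needed an adjusted p under 0.05 and 2-fold. Means under log2 5 were raised to it for bounds. Tested on simulated data of 8173 genes for the tumor comparison, the fit found 95 of 100 genes set to differ by log2 1.5 and 97 of 100 set to log2 2, and made 0 false calls. The simulated noise was the technical spread of arrays alone, and genes not set to differ had equal means in both tumor pools. The 0 therefore says nothing of differences from mice or mixtures of cells. The spread from mouse to mouse was not tested.

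The 40 gene lists held 950 entries, of which 859 were on the array, and 46 of the genes tested are in more than 1 list. The genes and lists were chosen with earlier results of these data known, so that no list is independent evidence of its direction. Genes were named by a rule: Hdc, the 12 largest and 12 smallest differences with both pools at or above log2 5, the 6 largest bounds in each direction (both without genes that carry a clone name), up to 4 called genes per list, and any gene of the histamine, primary granule, mature neutrophil, suppressive function and erythroid lists. Any other gene named was chosen after its values were seen. No label says that array numbers tie the pools together, and same-numbered tumor arrays correlated at 0.06 in their deviations.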

Additional observations from a re-analysis of the deposited data

Results flagged for a closer look

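The difference between the pools was not the same in tumor and in marrow for 2256 of the 7936 genes, by a limma contrast of the tumor effect minus the marrow effect with an adjusted p under 0.05 and at least 2-fold. For Hdc it was 3.14 on the log2 scale, since its fall between the marrow pools was not seen between the tumor pools. Over all genes tested the contrast was called for 28.5%. The lists below were picked because a large majority of their tested genes passed it, and lists with few tested genes were left out. Among gene lists it was called for 33 of 34 mitosis genes and 24 of 27 DNA replication genes, all lower. Of 11 primary granule genes 8 passed, 1 higher and 7 lower. All 24 genes of epithelial junctions and keratins passed, 22 higher and 2 lower. It was called for 19 of 19 genes of enterocytes, 15 of 16 of goblet cells and mucus and 21 of 22 of xenobiotic metabolism, all higher. So it was for 14 of 14 genes of MHC class II and dendritic cells and 11 of 12 interferon gamma-induced GTPase genes. Of 10 T and NK cell genes 9 passed, 8 higher and 1 lower.

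Among the named genes for which the contrast was called, the fitted difference of effects was positive for Ccl5, a T cell chemokine, at 6.14, Ces2a, a carboxylesterase, at 6.06, Sptssb, a subunit of the enzyme that starts sphingolipid synthesis, at 5.72, and Aldh1a1, which makes retinoic acid, at 5.34. It was negative for Cd3d at -6.60, for the mast cell proteases Mcpt2 at -6.43 and Mcpt1 at -5.49, and for Olfml2b at -5.40. For Cd3d, whose marrow means were 7.63 in the wild-type and 12.48 in the HDC-KO pool, the tumor difference was -1.76. Several of these fitted sizes rest on pool means under log2 5, where values are near background. With such means raised to log2 5, the difference of effects was 4.78 for Ccl5, 5.82 for Ces2a, 4.87 for Sptssb, 4.74 for Aldh1a1, -3.87 for Mcpt2 and -3.35 for Mcpt1. For Hdc, Cd3d and Olfml2b it was the same as fitted.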

How the results depend on the processing

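The calls rest on 1 pool per group, and leaving out an array assumes that the lone array left varies like those of the other pools. A filter at log2 7 left 791 genes called higher, and the share of calls that were higher went from 60.7% to 52.9%. A 4-fold threshold left 822 genes called, 524 higher and 298 lower, and 908 for the difference of effects. Without each array in turn, 2075 to 2092 genes were called, 1259 to 1273 higher and 813 to 827 lower, with 2239 to 2274 for the difference of effects and -0.22 to -0.21 for Hdc. The fit with the replicate number as a block called 2075 genes, as did the fit without it. Same-numbered arrays correlated at 0.06 between the tumor pools, and the numbers were not taken to pair them. Hdc has no value without probe sets ending in _x_at or _s_at. Of 179 named genes 20 lost or gained a call under at least 1 of 20 alternatives other than the 4-fold threshold, 40 lost theirs at 4-fold, and 0 reversed.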
